A study of Mus musculus with 7 samples.

Results

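RNA of 10 genes, encoding 7 S100 proteins (S100a1, S100a4, S100a6, S100a10, S100a11, S100a13 and S100a16) and 3 annexins (Anxa1, Anxa2 and Anxa3), was followed through reprogramming and through conversion between pluripotent states. The genes were taken by name from the 29267 genes of each table, and all 10 were found by Ensembl identifier. The series holds 7 libraries, 1 for each group, so there are no replicates, no test between groups was possible, and every comparison below is between single libraries. The question behind the design was how the reprogramming medium shapes the cells obtained and how pluripotent states can be converted into each other.

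The 4 libraries of sorted cells (passages 0) came from mouse embryonic fibroblasts (MEFs) of the OG2 strain, which carries an Oct4GFP transgene, green fluorescent protein under the Oct4 promoter and its distal enhancer. All 4 groups carry retroviral Oct4, Sox2, Klf4 and c-Myc and were grown in either mES or 5C medium before the Oct4GFP+ and Oct4GFP- cells were separated. mES medium contains serum, LIF and vitamin C. 5C medium is free of serum and contains N2 supplement, bFGF, LIF, vitamin C and β-mercaptoethanol. The 5C-Oct4GFP+ (naive) and 5C-Oct4GFP+ (primed) libraries are 5C-Oct4GFP+ cells after conversion, the first in LIF with inhibitors of MEK and GSK3 and the second in bFGF with activin A. R1 ESCs-primed is the mouse embryonic stem cell line R1 brought to the primed state on MEF feeder cells and then kept with CHIR99021 and IWR-1 in place of bFGF and activin A. Whether the converted primed cells were kept in the same way is not given in the sources used here. The labels give 20 passages for these 3 libraries. For the converted cells of this RNA-Seq, a figure legend of the paper gives 3 days in naive or primed medium. Another of its legends adds 20 further passages, so the time in culture is not settled by the sources used here. The converted cells still carry the retroviral factors and the reporter, the primed ones had lost green fluorescence, and whether each line was 1 clone is not given in the sources used here.

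S100 proteins are small proteins with EF-hand calcium-binding loops that usually work as dimers, exposing a binding surface when calcium rises. Annexins bind acidic phospholipids of membranes in the presence of calcium. The families meet physically: an S100 dimer holds the N-terminal tails of a pair of annexin molecules and can bring membranes, or membranes and the actin cortex, together. S100a10 with Anxa2 and S100a11 with Anxa1 are the classical pairs. Several of these genes are abundant in fibroblasts and in simple epithelia, and S100a4 is also known as fibroblast-specific protein.

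Depth and cell identity were checked first. The summed expected counts ranged from 6108252 to 11496615 per library, and the 10 genes held between 743 reads in mES-Oct4GFP+ and 34642 in mES-Oct4GFP-. Nanog was at 17.1 TPM (abundance per transcript length, scaled to the same total in every library) in mES-Oct4GFP- and at 697 in mES-Oct4GFP+. Of 9 pluripotency markers, 6 were higher and 2 lower by 2-fold or more in mES-Oct4GFP+ than in mES-Oct4GFP-. Their sums were 3683 and 4264 TPM. In 5C-Oct4GFP+, 6 were higher and none lower than in 5C-Oct4GFP-, with sums of 4833 and 2537 TPM. Zfp42, a marker of the naive state, was listed at 0 in 5C-Oct4GFP+ (primed). All 7 libraries held Pou5f1 (Oct4) RNA at 1321 TPM or more, but reads of the retroviral copy and of the endogenous gene cannot be told apart. The summed TPM of 11 fibroblast markers was 601 in mES-Oct4GFP-, 282 in 5C-Oct4GFP-, 239 in R1 ESCs-primed and 83.3 in 5C-Oct4GFP+ (primed), against 11.4 to 16.7 in the other 3. The sum of 8 epithelial markers lay between 522 in mES-Oct4GFP+ and 2616 in mES-Oct4GFP-. In these bulk samples a smaller share of cells of a type and less RNA per cell cannot be told apart.

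The 7 S100 genes lie among 14 S100 genes of chromosome 3 that the files hold (GRCm38, GENCODE M21 coordinates), while the annexins are scattered: Anxa1 at chr19:20373428-20390944, Anxa2 at chr9:69453620-69491795 and Anxa3 at chr5:96793339-96845966. S100a1 to S100a9 form a block of 185 kb, and S100a11 and S100a10 lie 2.82 Mb further on, separated by 28.8 kb. S100a1 and S100a13 are transcribed away from each other, and only 42 bases separate their annotated starts. Those bases, at chr3:90514393-90514434 and read on the plus strand, are shown because the levels of these adjacent genes parted in the data.
S100a1 to S100a13: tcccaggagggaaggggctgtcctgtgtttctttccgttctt

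RefSeq start sites were available for 8 of the 10 genes (not for S100a10 and Anxa3). The bases before the start are shown for S100a4, S100a6 and Anxa2, which had the widest range across libraries, and for S100a11, which had the narrowest. The sequences are from RefSeq (GRCm38.p6, plus strand) and stop before the first annotated exon base. They lie at chr3:90603520-90603769 for S100a4, chr3:90612644-90612881 for S100a6, chr3:93520246-93520487 for S100a11 and chr9:69453433-69453619 for Anxa2. Capitals mark the motifs searched on both strands: the AP-1 site TGANTCA, the GC box GGGCGG, the TATA box TATAAA, the TEAD site GGAATG, and the E-boxes CAGGTG and CACGTG. No marked motif overlaps another.
S100a4: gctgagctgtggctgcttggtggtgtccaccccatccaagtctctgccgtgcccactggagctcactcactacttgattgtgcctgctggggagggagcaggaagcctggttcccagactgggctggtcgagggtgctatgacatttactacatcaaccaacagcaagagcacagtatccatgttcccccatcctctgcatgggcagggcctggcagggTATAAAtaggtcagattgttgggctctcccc
S100a6: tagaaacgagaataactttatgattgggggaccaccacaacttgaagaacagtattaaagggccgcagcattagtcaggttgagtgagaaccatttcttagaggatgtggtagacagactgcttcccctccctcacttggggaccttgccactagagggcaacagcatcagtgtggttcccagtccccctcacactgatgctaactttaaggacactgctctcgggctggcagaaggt
S100a11: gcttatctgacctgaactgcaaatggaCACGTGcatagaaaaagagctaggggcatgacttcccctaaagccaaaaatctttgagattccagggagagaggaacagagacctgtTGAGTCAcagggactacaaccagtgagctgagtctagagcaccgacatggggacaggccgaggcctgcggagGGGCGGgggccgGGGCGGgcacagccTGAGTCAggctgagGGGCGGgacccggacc
Anxa2: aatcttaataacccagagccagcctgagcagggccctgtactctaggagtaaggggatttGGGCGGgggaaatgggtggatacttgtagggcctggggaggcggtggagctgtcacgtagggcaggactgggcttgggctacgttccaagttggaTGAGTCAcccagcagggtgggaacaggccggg

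The 250 bases before the RefSeq start were scanned in the same way in 9 promoters of the 8 genes and in all 32851 promoters of the table. S100a11 and Anxa2 both held the AP-1 letters and the GC box in this window. The AP-1 letters were in 3 of the 9 promoters (S100a16, S100a11 and Anxa2) and in 6.75% of all promoters, and the GC box was in the same 3 and in 32.7% of all. The TATA box was in S100a4, Anxa2 and Anxa1 and in 12.4% of all promoters. In Anxa2 it lies 17 to 12 bases before the RefSeq start. That is within the last 63 bases of the window, cut from the sequence above at an annotated exon. The Anxa2 GC boxes at 48 to 43 and 24 to 19 bases before the start lie there too. S100a6 and the shared stretch of S100a1 and S100a13 held none of these letters, which says nothing on the factors themselves. The remaining matches were the TEAD letters in Anxa1 (12.6% of all), CAGGTG in S100a16 (17.2% of all) and CACGTG in S100a11 (6.02% of all).

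Levels are given in TPM in the order mES-Oct4GFP+, mES-Oct4GFP-, 5C-Oct4GFP+, 5C-Oct4GFP-, 5C-Oct4GFP+ (naive), 5C-Oct4GFP+ (primed) and R1 ESCs-primed. Intervals are exact 95% counting intervals, which cover counting error only and leave out any variation from culture to culture. In each of the 10 genes the highest library was mES-Oct4GFP-, and in 7 of them the lowest was 5C-Oct4GFP+ (naive). Of these 7, only Anxa1 was separated by counting from the next lowest library, mES-Oct4GFP+, and its order there depended on the scaling.

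**Figure D1:**
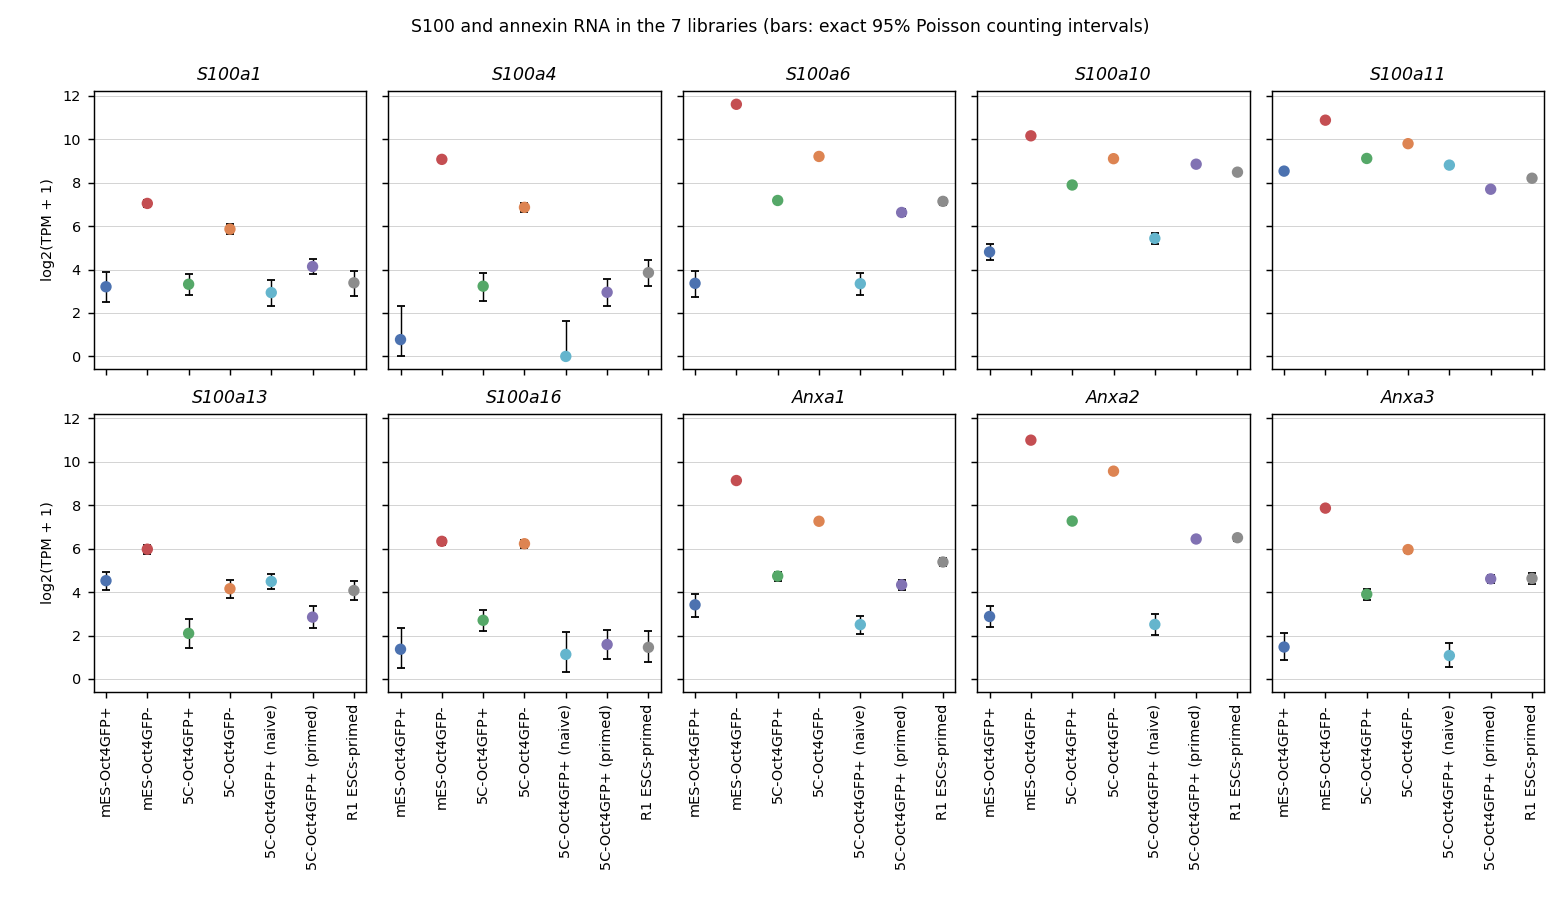
Level of each of the 10 genes, as log2(TPM + 1) on the vertical axis, in the 7 libraries on the horizontal axis, 1 point per library. Bars are exact 95% Poisson counting intervals and are smaller than the point where counts are high, and mES-Oct4GFP- is the highest point in all 10 panels.

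S100a10 and Anxa2 build a heterotetramer at the inner face of the plasma membrane. S100a10 is the member that does not need calcium for binding, and at the cell surface the complex binds plasminogen and its activator. S100a10 was at 27.0, 1138, 236, 549, 42.2, 460 and 356 TPM. Anxa2 was at 6.34, 2036, 153, 757, 4.69, 86.0 and 89.6 TPM. Both were high in the Oct4GFP- libraries and low in mES-Oct4GFP+ and 5C-Oct4GFP+ (naive), with the 5C-Oct4GFP+ and primed libraries between. All neighbouring levels of S100a10 were separated by counting, whereas for Anxa2 the primed libraries (ratio of R1 ESCs-primed to 5C-Oct4GFP+ (primed) between 0.927 and 1.17) and the lowest pair (0.769 to 2.39) could not be ordered. A short overlap with the antisense gene Gm16144, which had at most 1.55 TPM, touches 98 exon bases of Anxa2.

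S100a6 (calcyclin) and S100a4 (metastasin), neighbours on chromosome 3, are linked with cell growth and with the motility of fibroblasts and of invasive cells, and S100a4 binds non-muscle myosin. S100a6 was at 9.30, 3114, 144, 589, 9.18, 97.7 and 140 TPM, and in mES-Oct4GFP- it was the 23rd most abundant of all genes. S100a4 was at 0.71, 536, 8.40, 115, 0, 6.74 and 13.5 TPM. It had 1005 reads in mES-Oct4GFP-, 1 read in mES-Oct4GFP+ and none in 5C-Oct4GFP+ (naive), where 3 reads would have been worth 1.71 TPM. Against that floor S100a4 was 313-fold higher in mES-Oct4GFP-, 67.3-fold in 5C-Oct4GFP- and 7.86-fold in R1 ESCs-primed. It was 4.90-fold higher in 5C-Oct4GFP+ and 3.93-fold in 5C-Oct4GFP+ (primed). These folds leave out counting error in the higher library. With it, the lower ends of the 95% intervals against the naive library were 3.57-fold for 5C-Oct4GFP+ and 2.88-fold for 5C-Oct4GFP+ (primed). Of neighbouring levels, 5C-Oct4GFP+ and R1 ESCs-primed were not separated by counting for either gene, and neither were mES-Oct4GFP+ and 5C-Oct4GFP+ (naive). For S100a4, 5C-Oct4GFP+ and its primed derivative were not separated either. S100a4 shares 302 exon bases with the predicted gene Gm42674 on the same strand, which has no entry in the tables.

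S100a11 and Anxa1 form the second classical pair. Anxa1 is induced by glucocorticoids and is known as an inhibitor of phospholipase A2 and a ligand of formyl peptide receptors. S100a11 was at 369, 1875, 552, 886, 447, 206 and 293 TPM and was the only member above 200 TPM in every library. Its range of 9.09-fold was the narrowest of the 10 genes, and its lowest level was in 5C-Oct4GFP+ (primed) and not in the naive library. All neighbouring levels of S100a11 were separated by counting. Anxa1 was at 9.65, 561, 25.7, 152, 4.66, 19.1 and 40.8 TPM, so it varied 120-fold and did not keep pace with its partner. The processed pseudogene S100a11-ps on chromosome 12 is not listed as a gene in the tables. Whether reads from it were counted as S100a11 was not tested.

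S100a1, best known as a regulator of calcium cycling in heart muscle, and S100a13, which takes part in the release of Fgf1 and Il1a without a signal peptide, are the divergent neighbours shown above. S100a1 was at 8.23, 131, 9.0, 57.1, 6.66, 16.6 and 9.47 TPM. S100a13 was at 22.0, 61.8, 3.28, 16.8, 21.5, 6.19 and 15.8 TPM. S100a1 was highest in the Oct4GFP- libraries, and its levels in R1 ESCs-primed, 5C-Oct4GFP+, mES-Oct4GFP+ and 5C-Oct4GFP+ (naive) were not separated by counting from one to the next. S100a13 was lowest in 5C-Oct4GFP+ with 12 reads, and its levels in mES-Oct4GFP+, 5C-Oct4GFP+ (naive), 5C-Oct4GFP- and R1 ESCs-primed were not separated from one to the next, nor was 5C-Oct4GFP+ from its primed derivative.

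S100a16, a widely expressed member with a weak N-terminal calcium loop, was at 1.58, 79.7, 5.50, 73.8, 1.19, 2.0 and 1.74 TPM. It was the only member with nearly the same level in both Oct4GFP- libraries. With 3 to 9 reads in mES-Oct4GFP+, 5C-Oct4GFP+ (naive), 5C-Oct4GFP+ (primed) and R1 ESCs-primed, no order among those 4 could be given. Anxa3, an annexin abundant in neutrophils and able to aggregate membranes, was at 1.77, 232, 13.9, 61.0, 1.11, 23.4 and 23.7 TPM. It was the member whose level in the primed libraries differed least between 5C-Oct4GFP+ (primed) and R1 ESCs-primed, with a ratio between 0.794 and 1.23. The predicted gene Gm42603 shares 112 exon bases with Anxa3.

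The reprogramming medium was compared within each sorted fraction. Below, a gene passed 2-fold when its difference on log2(TPM + 1) was at least 1 and it had at least 1 TPM in either library, and differences are on that scale, which understates those of low genes. The comparisons share libraries, so counts in one are not independent of counts in the next. In Oct4GFP- cells, 9 of the 10 genes were lower in 5C than in mES medium by 2-fold or more, and none was higher (background: 10.1% of 15859 genes lower and 9.68% higher). The median difference of the 10 genes was −1.62, against 0.03 over all genes tested. S100a6 had the largest difference, −2.40, a level 5.29-fold higher in mES-Oct4GFP- (5.01 to 5.58). S100a16 was the exception, with a ratio of 5C-Oct4GFP- to mES-Oct4GFP- of 0.926 (0.785 to 1.09). Most fibroblast markers moved with the members: 7 of 11 were lower and 1 was higher in 5C-Oct4GFP- by 2-fold or more, with sums of 282 against 601 TPM. So did 6 of 8 epithelial markers (862 against 2616 TPM) and 4 of 5 endothelial markers (43.9 against 46.8 TPM). Pluripotency markers went mostly the other way. By 2-fold or more, 5 of 9 were higher in 5C-Oct4GFP- and 1 was lower, with a median difference of 1.96 and sums of 2537 against 4264 TPM. Their part in the result was not tested.

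In Oct4GFP+ cells the same contrast ran the other way. Here 7 of the 10 genes had the higher level in 5C medium by 2-fold or more (background 13.7%), and 1, S100a13, was lower (background 13.5%). Anxa2 showed the largest difference, 24.1-fold (16.7 to 36.2), followed by S100a6 with 15.5-fold (9.91 to 25.5) and S100a10 with 8.75-fold (6.65 to 11.7). Anxa3 was 7.86-fold higher (4.0 to 17.6), S100a16 3.48-fold (1.20 to 13.8) and Anxa1 2.66-fold (1.76 to 4.17). For S100a4, the single read in mES-Oct4GFP+ gave a ratio of 11.8 with an interval of 1.86 to 496. S100a11 was 1.5-fold higher (1.36 to 1.66), and the ratio of S100a1, 1.09 (0.573 to 2.18), held 1. S100a13 was 6.71-fold higher in mES-Oct4GFP+ (3.51 to 13.9). The median difference of the 10 genes was 1.88, against −0.06 over all genes tested.

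The fibroblast markers were low and did not share this pattern. Their sum was 11.4 TPM in 5C-Oct4GFP+ and 15.5 in mES-Oct4GFP+. Only 6 of the 11 had at least 1 TPM in either library, so little can be read from this list. Of these, 1 was higher and 2 were lower in 5C-Oct4GFP+ by 2-fold or more. Twist2 was listed at 0 in mES-Oct4GFP+ and at 0.14 TPM in 5C-Oct4GFP+. Other lists did share it. By 2-fold or more, 6 of 8 epithelial markers (915 against 522 TPM in sum) and 3 of 5 primed markers (240 against 19.4) were higher in 5C-Oct4GFP+. So were 2 of 5 endothelial markers (29.7 against 10.4) and 2 of 7 blood cell markers (48.2 against 17.2). In each of these last lists only 3 genes had at least 1 TPM in either library. In turn, 1 primed and 1 blood cell marker were lower. Their part in the result was not tested. Thus, with the medium changed from mES to 5C, S100a4, S100a6, S100a10, S100a11, Anxa1, Anxa2 and Anxa3 were lower in the Oct4GFP- cells and higher in the Oct4GFP+ cells with both counting intervals clear of 1. S100a1 and S100a16 had the same signs with 1 of the intervals holding 1, whereas S100a13 was lower in both fractions. Whether the fractions differed in their response was not tested, as each holds 1 library per medium.

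**Figure D2:**
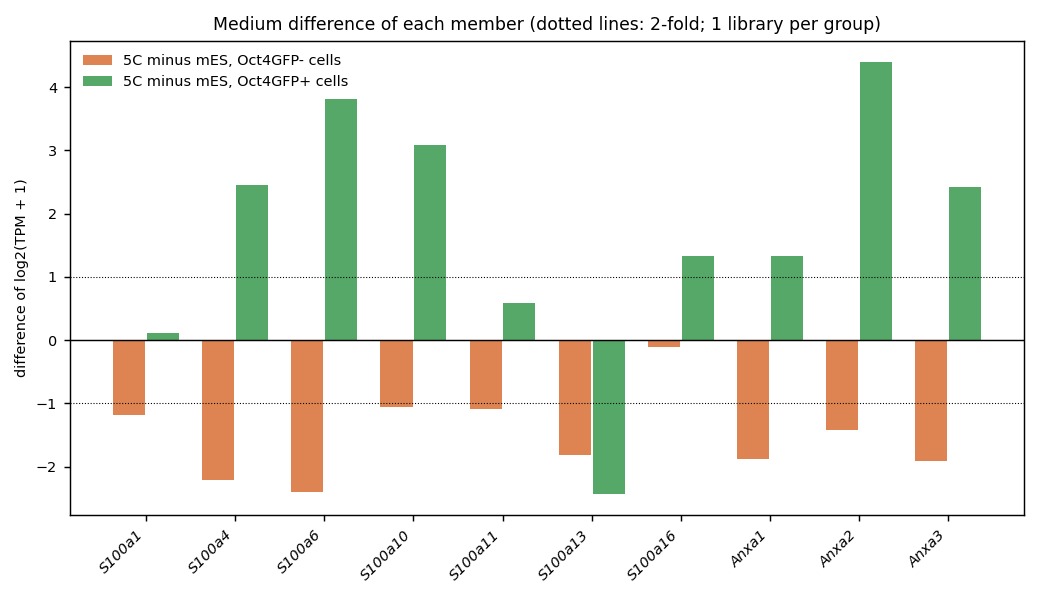
Difference of log2(TPM + 1) between 5C and mES medium for each of the 10 genes, in Oct4GFP- cells (orange) and Oct4GFP+ cells (green), 1 library per group, with dotted lines at 2-fold. The orange bars are all below 0, down to −2.40 for S100a6, while 9 of the 10 green bars are above 0, up to 4.39 for Anxa2, and that of S100a13 is at −2.43.

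Oct4GFP+ and Oct4GFP- cells were then compared within each medium. In mES medium all 10 genes were lower in the Oct4GFP+ cells by 2-fold or more (background 28.8%, and 17.9% higher), with a median difference of −5.53 against −0.15 over all genes. The ratio of S100a4, mES-Oct4GFP- to mES-Oct4GFP+, rested on 1 read in the latter and was 756 (136 to 29985). Levels in mES-Oct4GFP- were 335-fold higher for S100a6 (217 to 548), 321-fold for Anxa2 (223 to 480), 131-fold for Anxa3 (68.7 to 286) and 58.1-fold for Anxa1 (39.6 to 89.1). S100a16 followed with 50.5-fold (19.5 to 187) on 4 reads in mES-Oct4GFP+, and S100a10 with 42.1-fold (32.3 to 56.1). S100a11 and S100a13 differed least, 5.09-fold (4.65 to 5.58) and 2.81-fold (2.03 to 3.96). All 11 fibroblast markers were also lower in mES-Oct4GFP+ by 2-fold or more, from 601 to 15.5 TPM in sum. Of 8 epithelial markers, 6 were lower and 1 was higher by 2-fold or more. The part of both lists was not tested.

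In 5C medium the gap was smaller in these libraries for every gene except S100a13, a comparison that was not tested. There, 9 of the 10 genes were lower in the Oct4GFP+ cells by 2-fold or more (background 22.6%, and 8.45% higher), and the median difference was −2.18 against −0.25 over all genes. With median-ratio or TMM scaling 8 were, as S100a10 came to −0.99 and −0.94. Levels in 5C-Oct4GFP- were 4.94-fold higher for Anxa2 (4.64 to 5.27), 4.10-fold for S100a6 (3.71 to 4.53) and 13.4-fold for S100a16 (8.90 to 21.1). S100a11 was below the 2-fold line with 1.60-fold (1.49 to 1.72). S100a13 was 5.12-fold higher in 5C-Oct4GFP- (2.67 to 10.6). Fibroblast markers moved in the same direction in this comparison too, with 9 of 11 lower in 5C-Oct4GFP+ by 2-fold or more and sums of 11.4 against 282 TPM, while 2 of 8 epithelial markers were lower and 2 higher, and their part was not tested.

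Conversion of 5C-Oct4GFP+ cells in naive medium was accompanied by lower levels of most members. By 2-fold or more, 7 of 10 were lower (background 17.5%) and S100a13 was higher (background 10%), with a median difference of −2.35 against −0.10 over all genes. The level in 5C-Oct4GFP+ was 32.6-fold higher for Anxa2 (22.2 to 50.2), 15.7-fold for S100a6 (10.7 to 23.8), 12.5-fold for Anxa3 (6.15 to 29.6) and 5.59-fold for S100a10 (4.62 to 6.82). Anxa1 was 5.50-fold higher in 5C-Oct4GFP+ (3.80 to 8.18), and S100a16, with 3 reads in the naive library, 4.62-fold (1.41 to 23.9). S100a13 was 6.54-fold higher in the naive library (3.51 to 13.3). S100a11 differed by 1.24-fold (1.14 to 1.35), and the ratio of S100a1, 0.740 (0.395 to 1.35), held 1. In sum, fibroblast markers were at 16.7 TPM in the naive library and 11.4 in 5C-Oct4GFP+. By 2-fold or more, 6 of 8 epithelial markers (531 against 915 TPM), 3 of 5 primed markers (30.0 against 240) and 3 of 5 endothelial markers (4.46 against 29.7) were lower in the naive library. In turn, 1 primed marker was higher there by 2-fold or more. The part of these lists was not tested.

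Conversion in primed medium moved the members less. None of the 10 was higher than in 5C-Oct4GFP+ cells by 2-fold or more (background 13.7%), and S100a11 and S100a16 were lower (background 16.1%). S100a11 was 2.68-fold higher in 5C-Oct4GFP+ (2.43 to 2.96) and S100a16 2.75-fold (1.24 to 6.71). With TMM-normalized CPM, or with FPKM, 1 of the 10 was lower by 2-fold or more, as S100a16 came to −0.97 and −0.94. S100a10 came close to the line from the other side, 1.95-fold higher in the primed library (1.79 to 2.12), whereas its partner Anxa2 was at 0.562 of its level in 5C-Oct4GFP+ (0.512 to 0.616). The median difference was −0.34 against 0.06 over all genes. Over the same step 10 of 11 fibroblast markers were higher by 2-fold or more (83.3 against 11.4 TPM) and so were 5 of 8 epithelial markers (2050 against 915 TPM), and their part was not tested.

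The converted libraries were set against each other. In the primed library 7 of 10 genes were higher than in the naive library by 2-fold or more (background 22.2%), while S100a11 and S100a13 were lower (background 16.7%). The median difference was 2.39 against 0.14 over all genes. Anxa3 was 21.1-fold higher (10.5 to 49.3), Anxa2 18.3-fold (12.4 to 28.3), S100a10 10.9-fold (9.06 to 13.2), S100a6 10.6-fold (7.25 to 16.2) and Anxa1 4.11-fold (2.82 to 6.13). S100a1 was 2.49-fold higher (1.47 to 4.40), but with TMM its difference was 0.90, which left 6 genes past 2-fold. On the other side, S100a11 was 2.16-fold (1.95 to 2.41) and S100a13 3.47-fold (2.15 to 5.73) higher in the naive library. In the primed library 8 of 11 fibroblast markers, 6 of 8 epithelial markers and 5 of 5 primed markers were also higher by 2-fold or more. In turn, 1 fibroblast marker was lower. The part of these lists was not tested.

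Each converted library was also compared with a library that did not come from 5C medium, the primed one with R1 ESCs-primed and the naive one with mES-Oct4GFP+. Between the primed libraries, none of the 10 was higher in 5C-Oct4GFP+ (primed) by 2-fold or more (background 2.3%) and S100a13 and Anxa1 were lower (background 5.09%). Their levels were 2.55-fold (1.51 to 4.40) and 2.13-fold (1.74 to 2.61) higher in R1 ESCs-primed, and with TMM (S100a13 at −0.98) or FPKM (Anxa1 at −0.99) 1 of the 10 was lower by 2-fold or more. The intervals of the ratios of S100a16, Anxa2 and Anxa3 held 1, and the sign of these 3 differences depended on the scaling. The fibroblast markers summed to 239 TPM in R1 ESCs-primed and to 83.3 in the converted cells, and their part in the result was not tested.

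Between 5C-Oct4GFP+ (naive) and mES-Oct4GFP+, none of the 9 members with at least 1 TPM in either library passed 2-fold (background 2.49% higher and 6.27% lower), and S100a4 was below that minimum in both. The intervals of 7 of the 10 ratios held 1, S100a10 was 1.56-fold higher in the naive library (1.13 to 2.19) and S100a11 1.21-fold (1.09 to 1.35). Anxa1 was 2.07-fold higher in mES-Oct4GFP+ in TPM (1.19 to 3.55), but its difference of −0.91 became 0.06 in TMM-normalized CPM. RSEM assigned Anxa1 an average transcript length of 882 bases in mES-Oct4GFP+ and of up to 1674 in other libraries, and TPM divides by that length. The signs of S100a1, S100a6 and S100a13 also turned under at least 1 other scaling in this comparison, where their differences were between −0.27 and −0.02.

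The make-up of the summed RNA of the 10 genes changed with its amount. The sum was 455 TPM in mES-Oct4GFP+ and 538 in 5C-Oct4GFP+ (naive), and S100a11 alone gave 81.0% and 83.0% of it. In mES-Oct4GFP-, with 9765 TPM or 0.976% of all transcripts, S100a6 led with 31.9%, followed by Anxa2 with 20.8% and S100a11 with 19.2%. In 5C-Oct4GFP+ (1151 TPM) S100a11 gave 48.0% and S100a10 20.5%. In the primed libraries S100a10 was the leading member, with 49.8% of 924 TPM in the converted cells and 36.2% of 984 TPM in R1 ESCs-primed. In 5C-Oct4GFP- (3256 TPM) no member gave more than 27.2%.

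**Figure D3:**
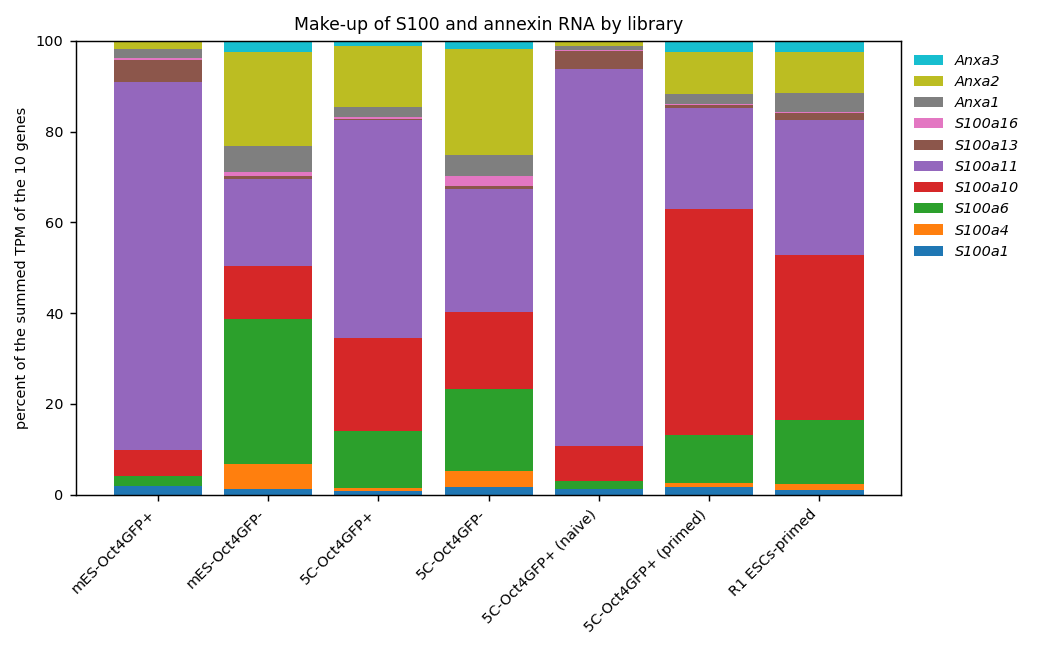
Share of each of the 10 genes, in percent on the vertical axis, in their summed TPM in each library. S100a11 fills 81.0% and 83.0% of the bars of mES-Oct4GFP+ and 5C-Oct4GFP+ (naive), and S100a10 is the widest segment in both primed libraries.

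Ratios of partners and neighbours within a library do not depend on scaling between libraries. They do depend on the effective lengths assigned to both genes, which the counting intervals leave out. An excess below is therefore one of TPM. The subunits of the S100a10 and Anxa2 complex were not in a fixed RNA ratio. S100a10 TPM per Anxa2 TPM was 0.559 (0.537 to 0.582) in mES-Oct4GFP- and 0.725 (0.683 to 0.770) in 5C-Oct4GFP-, so Anxa2 was in excess in both Oct4GFP- libraries. It was 1.54 (1.41 to 1.69) in 5C-Oct4GFP+ and between 3.98 and 9.0 in the remaining 4, where S100a10 was in excess. The intervals of mES-Oct4GFP+ (2.67 to 6.93), 5C-Oct4GFP+ (primed) (4.91 to 5.84) and R1 ESCs-primed (3.55 to 4.46) can be set against that of 5C-Oct4GFP+ (naive) (5.86 to 14.3): the first overlapped all the others, the primed pair did not overlap each other, and the naive interval lay above both.

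S100a1 TPM per S100a13 TPM, at the divergent locus, was 0.374 (0.194 to 0.681) in mES-Oct4GFP+ and 0.310 (0.176 to 0.525) in 5C-Oct4GFP+ (naive). For the Oct4GFP- libraries it was 2.12 (1.76 to 2.55) with mES and 3.40 (2.42 to 4.84) with 5C medium, and the 5C-Oct4GFP+ library had 2.74 (1.37 to 5.87) before and 2.68 (1.66 to 4.44) after conversion to primed. The excess thus lay with S100a13 in the former and with S100a1 in the latter 4, and the interval of R1 ESCs-primed (0.339 to 1.04) held 1. S100a6 TPM per S100a11 TPM ranged from 0.0206 (0.0136 to 0.0299) in 5C-Oct4GFP+ (naive) to 1.66 (1.60 to 1.73) in mES-Oct4GFP-.

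**Figure D4:**
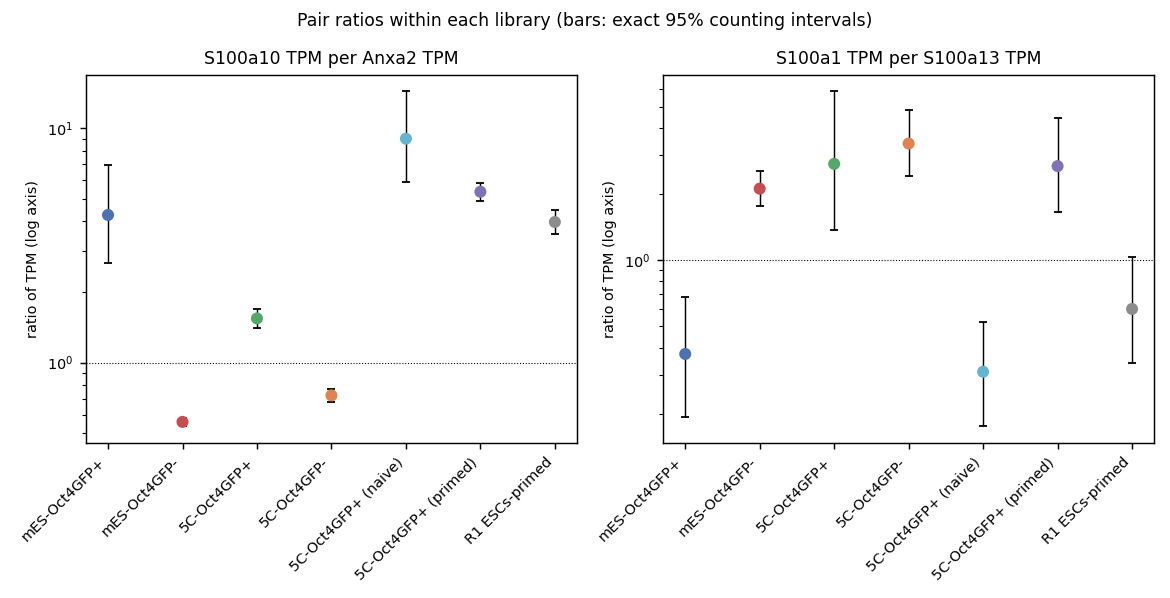
Ratio of TPM on a log axis in each library, for S100a10 per Anxa2 (left) and S100a1 per S100a13 (right), with exact 95% counting intervals and a dotted line at 1. S100a10 per Anxa2 is below 1 in both Oct4GFP- libraries, and S100a1 per S100a13 is below 1 in mES-Oct4GFP+ and 5C-Oct4GFP+ (naive).

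The rest of the S100 family was low outside the Oct4GFP- libraries. In mES-Oct4GFP-, S100a3 and S100a14 were above the members S100a16 (79.7 TPM) and S100a13 (61.8 TPM). Of 9 other S100 genes found, S100a5, S100a8 and S100z had no reads in any library, S100a8 with S100a9 being the calprotectin subunits of myeloid cells. The summed TPM of the 9 was 243 in mES-Oct4GFP-, 37.95 in 5C-Oct4GFP- and at most 5.66 in the other 5. S100a14, an epithelial S100 protein that lies between S100a13 and S100a16, was at 0, 99.3, 4.03, 26.3, 1.03, 0.31 and 0 TPM in the order used for the members. S100a3, known from the hair cuticle and encoded close to S100a4, was at 103 TPM in mES-Oct4GFP- and 4.77 in 5C-Oct4GFP-. S100g, a calcium buffer of gut and placenta encoded on the X chromosome, was at 36.2 and 1.15 TPM. S100a5 lies between S100a4 and S100a6.

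**Figure D5:**
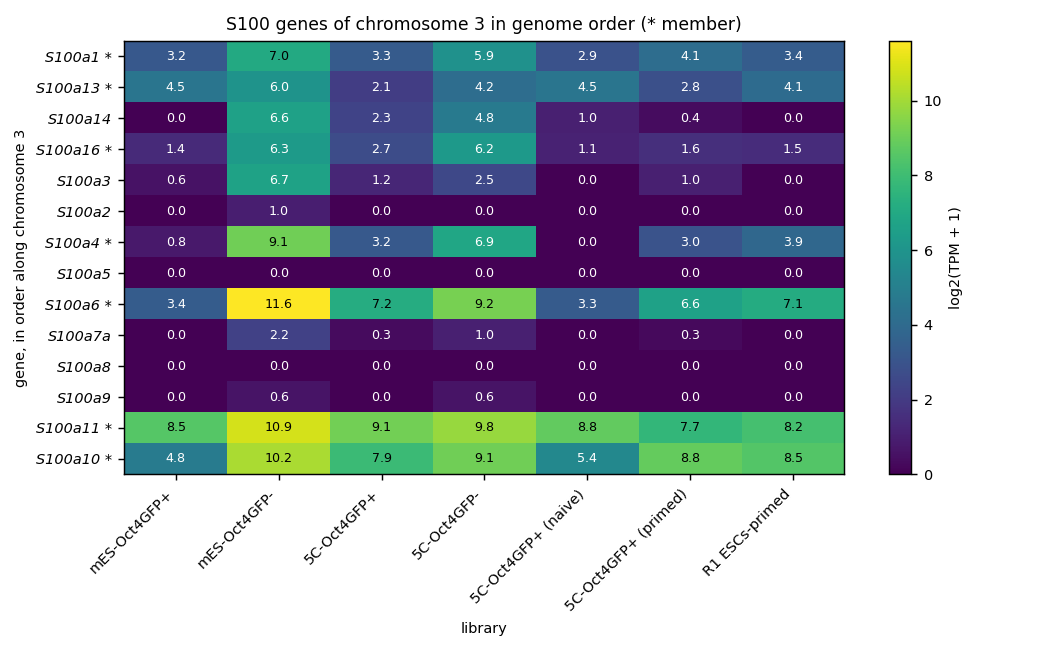
Level of the 14 S100 genes of chromosome 3, in genome order from top to bottom, as log2(TPM + 1) by colour and printed value, in the 7 libraries. Members of the set of 10 are starred, and S100a5 stays at 0 in all 7 columns between S100a4 and S100a6, which are at 536 and 3114 TPM in mES-Oct4GFP-.

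Of 9 other annexins, 8 had at least 1 TPM in either mES library, and 6 of these were lower by 2-fold or more in mES-Oct4GFP+ than in mES-Oct4GFP- with none higher (background 28.8% lower). Among Oct4GFP+ cells 3 of 7 (Anxa5, Anxa6 and Anxa8) were higher with 5C medium and none lower (background 13.7% higher). Among Oct4GFP- cells 5 of 8 were lower with 5C medium and none higher (background 10.1% lower), with a median difference of −1.15 over the 9. Anxa5, the phosphatidylserine binder used to stain apoptotic cells, was at 10.4, 273, 38.4, 291, 8.74, 82.5 and 120 TPM in the order used for the members. In Oct4GFP- cells its level was close in both media, as was that of S100a16. Anxa8 was at 540 TPM in mES-Oct4GFP- and at 4.22 in 5C-Oct4GFP+ (primed). Anxa4, Anxa7 and Anxa11 had at least 30.9 TPM in every library, and Anxa4 and Anxa7 were among the 5 that were lower in 5C-Oct4GFP-.

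Known partners and receptors, 22 genes in all, were counted in the same way. By 2-fold or more, 11 of the 17 with at least 1 TPM were lower and 1 was higher in mES-Oct4GFP+ than in mES-Oct4GFP- (background 28.8% and 17.9%). With 5C medium 7 of 16 were higher and none lower among Oct4GFP+ cells (background 13.7% and 13.5%). Among Oct4GFP- cells 2 of 17 were lower and 2 higher, near the background of 10.1% and 9.68%. Ahnak, a very large scaffold protein that binds the S100a10 and Anxa2 complex, was at 175 TPM in mES-Oct4GFP- and 66.1 in 5C-Oct4GFP-, and at 5.41 and 6.10 in the primed libraries, its lowest, where S100a10 was high. Plaur, the urokinase receptor of the plasminogen system, was at 88.4 TPM in mES-Oct4GFP- and between 18.1 and 23.0 in the 5C-Oct4GFP+, 5C-Oct4GFP- and both primed libraries, but at 1.36 in mES-Oct4GFP+ and 1.60 in 5C-Oct4GFP+ (naive). Cacybp, the calcyclin-binding protein named for S100a6, went the opposite way, with 488 TPM in mES-Oct4GFP+ and 190 in mES-Oct4GFP-. The formyl peptide receptors Fpr1 and Fpr2, targets of Anxa1, had at most 0.19 TPM.

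Genes with the most similar course were named by the root-mean-square difference of centred log2(TPM + 1) over the 7 libraries, among 13567 genes with at least 5 TPM in 1 library or more. This is a description over 7 single libraries and says nothing on shared function. For S100a6 the nearest genes were Pla2g7 (0.38) and Anxa2 (0.40), and S100a6 was in turn the nearest gene of Anxa2 and of S100a4 (0.57). For S100a10 they were Ddr1 (0.36) and Plaur (0.36), with Anxa2 not among them and Anxa3 the nearest member (0.68). Anxa1 was nearest to Cav1 (0.29) and Ptgs2 (0.35), and Anxa3 to St3gal6 (0.39) and Alox15 (0.40). S100a16 was nearest to Adh7 (0.31) and Scara5 (0.35), S100a11 to Slco2a1 (0.16) and Arhgef3 (0.24), S100a1 to Vsir (0.15) and Gm4070 (0.23), and S100a13 to Gm20388 (0.43) and Cyp1b1 (0.47). This scale understates the changes of low genes, so a similar course need not mean similar folds. Slco2a1, for example, was at 10.2 TPM in mES-Oct4GFP- and 0.24 in 5C-Oct4GFP+ (primed), where S100a11 was at 1875 and 206.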

How the data were processed

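The authors prepared TruSeq RNA v2 libraries from TRIzol-extracted RNA and sequenced them on an Illumina MiSeq, and per the labels RSEM with Bowtie and mm10 was used (versions are not given in the sources used here). Expected counts, as deposited, are estimated reads per Ensembl gene without normalization. The deposited TPM values are these counts per effective length, scaled to the same sum, and the deposited FPKM values are scaled to mapped fragments. The kit does not mark strand.

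All 10 members, the lists of related genes and the markers were chosen with earlier results of these data known. With 1 library per group, no test was run. Ratios have exact Clopper-Pearson and levels exact Poisson 95% intervals from counts rounded to whole numbers (scipy 1.17.1), and the floor is 3 reads. Genes named besides the members are those of the lists past 2-fold or of use as reference, and the 2 nearest per member. S100a2 was added to the chromosome map after its values were seen. Alternatives were a pseudocount of 0.1 in place of 1, a minimum of 5 TPM or none in place of 1, median-ratio scaling, TMM-normalized CPM (edgeR 4.0.16) and FPKM. The calling procedure was tested on simulated data. Positions are from GENCODE M21. A further reference list of genes is not reported here.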

Additional observations from a re-analysis of the deposited data

Results flagged for a closer look

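The medium difference, 5C minus mES on log2(TPM + 1), had opposite signs in the sorted fractions, with both counting intervals of the ratio clear of 1, for 7 genes, each with 1 library per group, so the difference between fractions was not tested. It was −2.21 in Oct4GFP- and 2.46 in Oct4GFP+ cells for S100a4 and −2.40 and 3.81 for S100a6. For S100a10 it was −1.05 and 3.08, and for S100a11 −1.08 and 0.58. Anxa1 had −1.88 and 1.32, Anxa2 −1.43 and 4.39, and Anxa3 −1.91 and 2.43.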

How the results depend on the processing

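Of 108 counts of members past 2-fold under the alternatives, 103 were within 1.5 times the reported count. The members lower in 5C-Oct4GFP+ (primed) than in 5C-Oct4GFP+, and than in R1 ESCs-primed, were 1 instead of 2 under TMM and under FPKM. With a pseudocount of 0.1, 1 member instead of 0 was lower in 5C-Oct4GFP+ (naive) than in mES-Oct4GFP+. That member was Anxa1, at −1.03 in place of −0.91. Why the settings differed for these genes was not tested. Of 360 differences of single members under the alternatives 347 kept their direction, and of 228 whose reported value was past 2-fold 221 stayed past it. TMM moved the median of all genes by 0.23 between 5C-Oct4GFP+ and 5C-Oct4GFP-, 0.18 between 5C-Oct4GFP+ (naive) and mES-Oct4GFP+, −0.15 between the converted libraries and 0.13 between the mES libraries. No paired analysis was possible because each group has 1 library. Leaving out a library was not run, since it would leave a group without data. Levels of a few reads, as of S100a4 and S100a16 in the naive library, are limited by depth.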
